A study of Mus musculus with 24 samples.

Results

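Genes of the vascular endothelial growth factor (VEGF) pathway, 7 in all, were followed in cerebellar RNA-seq of mice with an expanded Atxn1 allele, in which low Vegfa has been described. They were chosen by name and are the ligands Vegfa, Vegfb and Vegfc, the receptors Flt1 and Kdr, the coreceptor Nrp1 and the transcription factor subunit Hif1a. They are 7 of the 54232 genes listed in each library, and all 7 were among the 22502 genes kept by the filter on low counts. No gene of the 7 was called different between genotypes in any of 7 comparisons, and Vegfa stood at 105 ± 9.09 CPM (counts per 1000000 fragments on genes; SD, n = 4) in SCA1 mice against 102 ± 2.11 CPM (SD, n = 4) in WT mice of the same batch. These values are RNA of whole cerebellum at 6 weeks and were not matched to the earlier description in age, tissue or measure. A change confined to a single cell type could be missed in whole tissue.

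VEGF ligands are secreted proteins that bind receptor tyrosine kinases on endothelial cells and drive the growth and permeability of vessels. Kdr transmits most of the VEGFA signal, Flt1 binds VEGFA tightly and limits it, and neuropilins act as coreceptors for VEGF and as receptors for class 3 semaphorins in neurons. Hif1a, the oxygen-regulated subunit of hypoxia-inducible factor, is stabilized as a protein in hypoxia and raises transcription of Vegfa. In the cerebellum Vegfa is made by neurons and glia as well as by choroid plexus epithelium next to the tissue.

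Cerebella of 24 mice aged 6 weeks on a C57BL/6J background were sequenced, 1 library per mouse. The 8 WT mice carried 2 unexpanded Atxn1 alleles. The 4 SCA1 mice were knockin animals with a polyglutamine expansion in 1 allele of the endogenous gene, so the expanded protein was made wherever Atxn1 is active. In the 4 SCA1 S776A mice the expanded allele also encoded alanine in place of the phosphorylated serine, in the 4 S776A double mice both the expanded and the unexpanded allele did, and the 4 WT S776A homozygous mice had this change on both unexpanded alleles and no expansion. The edit was made by CRISPR/Cas9, and gene counts cannot show it.

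Each library had between 62163600 and 88430180 fragments on genes. The study was sequenced in 2 batches that the labels do not list, so the batch was inferred from 4 summary shares of the alignment. These are the fragments unmapped, not mapped uniquely, outside genes or ambiguous between genes. The count of no single gene enters them, though the last 2 depend on the annotation. This placed 16 mice in batch 1 and 8 in batch 2, with 9.52% to 12% of fragments outside genes in batch 1 and 5.23% to 6.31% in batch 2. The WT S776A homozygous mice and 4 of the WT mice were in batch 2, the others were in batch 1, and every genotype was set against the 4 WT mice that shared its batch.

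All 7 genes are protein coding in GENCODE M21 on GRCm38. Vegfa lies on chromosome 17 from 46016993 to 46032369, Vegfb on chromosome 19 from 6982473 to 6987651, Flt1 on chromosome 5 from 147561604 to 147726011 and Kdr on chromosome 5 from 75932827 to 75978458, all on the minus strand. Vegfc lies on chromosome 8 from 54077606 to 54187096, Nrp1 on chromosome 8 from 128358604 to 128503363 and Hif1a on chromosome 12 from 73901375 to 73947530, all on the plus strand. Counting ignored the strand, and 8.11% of the exon bases of Hif1a are shared with the annotated genes Gm15283 and Gm49321, so reads from them cannot be told apart there. For the other genes the shared part was 0.818% (Nrp1) or 0%.

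The promoters of Hif1a and of Vegfa, a gene whose transcription it raises, are shown because these 2 genes and the other HIF targets are set side by side among the results. The sequences are the 150 bases before a transcription start in RefSeq on GRCm38.p6, written 5′ to 3′ on the gene's strand, at chr17:46032378-46032527 (minus strand) for Vegfa and chr12:73907717-73907866 (plus strand) for Hif1a. Capitals mark ACGTG on either strand, the core of the HIF-binding element.
Vegfa: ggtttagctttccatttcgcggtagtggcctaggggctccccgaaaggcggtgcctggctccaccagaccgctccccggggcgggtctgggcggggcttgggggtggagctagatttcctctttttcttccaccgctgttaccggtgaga
Hif1a: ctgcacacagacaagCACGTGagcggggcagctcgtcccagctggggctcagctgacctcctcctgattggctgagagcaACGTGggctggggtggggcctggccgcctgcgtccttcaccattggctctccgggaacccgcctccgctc
Over the 250 bases before the start shown, ACGTG occurred 3 times for Hif1a, counting the overlapping copy on the other strand of the first site, and 0 times for Vegfa. The window before another Vegfa start inside the gene, not printed here, held it 1 time. The letters TGAATGAA and TGAATGGA, bound by Capicua, the repressor that forms a complex with ATXN1, were searched on both strands and occurred in none of the 7 genes' windows. Of all 32851 promoter windows, 16.6% held ACGTG, 1.08% held TGAATGAA and 1.01% held TGAATGGA. A match is a description of letters and not a bound site. Only these letters and windows were searched, so the absence of a match does not show that a gene lacks a site.

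Per kilobase of exon, the ligands Vegfb and Vegfa and the regulator Hif1a were the abundant members in WT cerebellum, and the receptors were low. In WT mice of batch 1, the level as RPKM (CPM divided by the exon length in kilobases) was 32.9 ± 3.51 for Vegfb, 27.1 ± 1.06 for Hif1a and 23.8 ± 0.492 for Vegfa (SD, n = 4). It was 2.43 ± 0.257 for Flt1, 1.94 ± 0.119 for Vegfc, 1.08 ± 0.114 for Kdr and 0.651 ± 0.115 for Nrp1. The order of the low members depended on the length used, as the longest transcript in place of all exons gave 4.75 RPKM for Flt1, 1.64 RPKM for Kdr and 1.75 RPKM for Nrp1. Even the member with the fewest fragments was well counted, with at least 285 fragments of Vegfc in each library and at least 5333 of Vegfa. Within a batch, the genotypes next to each other in the order of mean level overlapped for every member, except for Nrp1 in batch 2.

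Vegfa, the ligand of both Flt1 and Kdr, showed no fall beyond the spread between mice in any genotype with the expanded allele. The SCA1 mice had 99.5, 101, 101 and 119 CPM, and the WT mice of batch 1 had 101, 101, 101 and 105 CPM. Of the SCA1 mice, 1 lay above and 1 just below all WT mice, so the groups overlapped. The log2 fold change was 0.04 (standard error 0.06, 95% confidence interval -0.08 to 0.17, unadjusted p = 0.484, adjusted p = 0.893, edgeR quasi-likelihood test, Benjamini-Hochberg adjustment), an interval of -5.46% to 12.2% around the WT level. The exact two-sided permutation test of the 4 against 4 mice gave p = 0.857, where the smallest p it allows is 0.0286. Without the SCA1 mouse at 119 CPM the log2 fold change was -0.03 (95% confidence interval -0.15 to 0.09), so that mouse alone set its sign.

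In the edited genotypes no fall of Vegfa was detected either. The SCA1 S776A mice had 97.4, 104, 107 and 108 CPM, a log2 fold change of 0.03 against WT (95% confidence interval -0.1 to 0.15). The S776A double mice had 103, 104, 109 and 112 CPM, a log2 fold change of 0.07 (95% confidence interval -0.06 to 0.19). All 4 double mice lay above the WT median, but their range overlapped that of WT. Over the 12 mice with the expanded allele the log2 fold change was 0.05 (standard error 0.05, 95% confidence interval -0.06 to 0.15, edgeR adjusted p = 0.841), and the lower end of this interval corresponds to a change of -3.75%.

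In batch 2 all Vegfa values were lower, with 77.1, 78.6, 85.5 and 87.7 CPM in WT mice and 74.4, 75.1, 77.9 and 82.5 CPM in WT S776A homozygous mice. The homozygous mice overlapped WT, with a log2 fold change of -0.09 (95% confidence interval -0.21 to 0.04, edgeR adjusted p = 0.581). Between SCA1 S776A and SCA1 mice the Vegfa difference was -0.01 (95% confidence interval -0.14 to 0.11), and between S776A double and SCA1 mice it was 0.02 (95% confidence interval -0.1 to 0.15), both on the log2 scale.

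**Figure D1:**
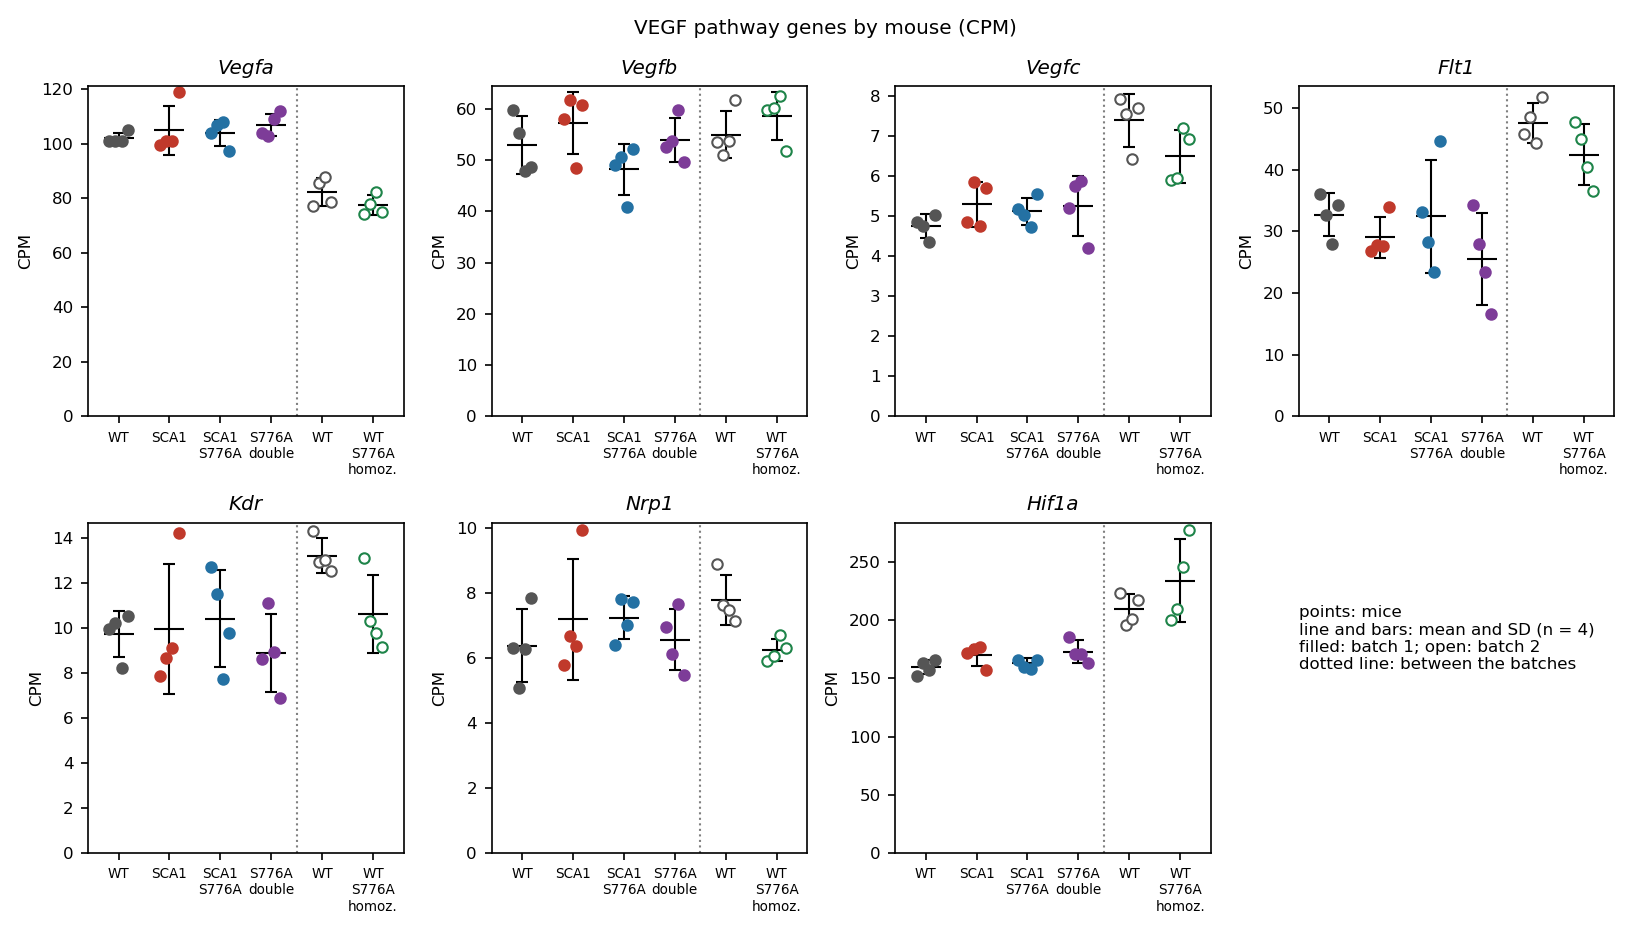
CPM of each VEGF pathway gene (y axes, linear from 0) in each mouse, by genotype and batch (x axis), with the mean and SD of each group of 4 mice. Vegfa lies near 100 CPM in all 4 genotypes of batch 1 and between 74.4 and 87.7 CPM in batch 2, and Vegfc, Flt1, Kdr and Hif1a are higher in the WT mice of batch 2 than in those of batch 1.

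Vegfb, a ligand of Flt1 and Nrp1 that is abundant in tissues with high oxidative metabolism, was the member with the widest contrast between SCA1 and SCA1 S776A mice. The SCA1 mice had 48.5, 58, 60.7 and 61.8 CPM and the SCA1 S776A mice 40.9, 49, 50.6 and 52.1 CPM. The WT mice of batch 1 had 47.9, 48.7, 55.2 and 59.8 CPM and lay between these groups in their mean. SCA1 S776A mice were lower than SCA1 mice by a log2 fold change of -0.25 (standard error 0.09, 95% confidence interval -0.44 to -0.06, unadjusted p = 0.0105), which did not pass adjustment over all genes (adjusted p = 1 with edgeR) and gave p = 0.114 in the exact permutation test. The ranges of the groups overlapped, and 1 of the 4 SCA1 S776A mice lay below all SCA1 mice. Against WT, the Vegfb log2 fold change was 0.12 in SCA1 mice (95% confidence interval -0.07 to 0.3) and -0.14 in SCA1 S776A mice (95% confidence interval -0.32 to 0.05). The S776A double mice, at 49.6 to 59.8 CPM, and the WT S776A homozygous mice, at 51.8 to 62.6 CPM, gave log2 fold changes of 0.03 and 0.09 against the WT mice of their batch.

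Vegfc, the ligand of Flt4 that drives the growth of lymphatic vessels, was the scarcest ligand. The WT mice of batch 1 had 4.34, 4.75, 4.86 and 5.03 CPM, and the SCA1 mice 4.75, 4.86, 5.71 and 5.85 CPM. The log2 fold change was 0.16 in SCA1 (95% confidence interval -0.07 to 0.38), 0.11 in SCA1 S776A (95% confidence interval -0.11 to 0.33) and 0.15 in S776A double mice (95% confidence interval -0.08 to 0.37). Their groups overlapped WT in each case. In WT S776A homozygous mice, at 5.91, 5.95, 6.93 and 7.19 CPM against 6.42, 7.54, 7.7 and 7.92 CPM in WT, the log2 fold change was -0.19 (unadjusted p = 0.0878, edgeR).

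Flt1, the high-affinity receptor for VEGFA, had lower means in all 4 genotypes than in WT, but no difference passed the test. The S776A double mice had the lowest mean, with 16.5, 23.4, 27.9 and 34.3 CPM against 28, 32.7, 34.3 and 36 CPM in WT. Of the 4 double mice, 3 lay below every WT mouse and the other lay among them. The log2 fold change was -0.36 (standard error 0.18, 95% confidence interval -0.73 to 0.02, unadjusted p = 0.0612, edgeR adjusted p = 0.732), and the exact permutation test gave p = 0.114. It was -0.54 without the double mouse at 34.3 CPM (95% confidence interval -0.91 to -0.16) and -0.2 without the one at 16.5 CPM (95% confidence interval -0.54 to 0.14), so its size rested on these 2 mice. The summed CPM of 16 endothelial markers was 185 to 240 in the double mice and 217 to 237 in WT, and its part in the Flt1 values was not tested. In bulk tissue, fewer endothelial cells and less Flt1 RNA per cell cannot be told apart.

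In SCA1 mice Flt1 was at 26.8, 27.6, 27.8 and 33.9 CPM, a log2 fold change of -0.17 (95% confidence interval -0.55 to 0.2). The highest of these values belonged to the mouse that was also highest for Vegfa. In that mouse the summed endothelial markers were at 260 CPM, against 200 to 221 CPM in the other SCA1 mice, and their part was not tested. SCA1 S776A mice ranged from 23.4 to 44.7 CPM and gave -0.01 (95% confidence interval -0.39 to 0.36), with 1 mouse above and 1 below all WT mice. WT S776A homozygous mice ranged from 36.6 to 47.7 CPM against 44.4 to 51.8 CPM in WT, with a log2 fold change of -0.17. From the lowest to the highest Flt1 value, their summed endothelial markers were at 216, 233, 277 and 298 CPM, against 257 to 290 CPM in WT. In the same order, their shares of fragments on mitochondrial genes were 6.73%, 4.82%, 4.11% and 3.84%. The part of either in the Flt1 values was not tested.

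Kdr, the main signaling receptor for VEGFA, had wide intervals in every comparison. The WT mice of batch 1 had 8.22, 9.96, 10.2 and 10.5 CPM, and the SCA1 mice 7.85, 8.63, 9.08 and 14.2 CPM. The log2 fold change in SCA1 mice was 0.03 (95% confidence interval -0.32 to 0.38), and -0.2 without the mouse at 14.2 CPM (95% confidence interval -0.52 to 0.12). That mouse is again the one with the highest Vegfa and, among SCA1 mice, the highest summed endothelial markers, 260 CPM. The part of these markers in its Kdr value was not tested. The log2 fold change was 0.1 in SCA1 S776A mice, at 7.74 to 12.7 CPM, and -0.13 in S776A double mice, at 6.86 to 11.1 CPM. In WT S776A homozygous mice, at 9.14, 9.78, 10.3 and 13.1 CPM against 12.5, 12.9, 13 and 14.3 CPM in WT, 3 of 4 mice lay below all WT mice. Their log2 fold change was -0.32 (standard error 0.17, 95% confidence interval -0.67 to 0.03, unadjusted p = 0.0706, edgeR adjusted p = 0.511). From the lowest to the highest Kdr value, the summed CPM of 16 endothelial markers was 216, 233, 277 and 298 in these mice, against 257 to 290 in WT. In the same order, their shares of fragments on mitochondrial genes were 6.73%, 4.82%, 4.11% and 3.84%. The part of either in the Kdr values was not tested.

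Nrp1, the coreceptor that endothelial cells share with axons, was the only member for which a genotype and its WT mice did not overlap. The WT S776A homozygous mice had 5.91, 6.06, 6.29 and 6.69 CPM, and the WT mice of batch 2 had 7.12, 7.46, 7.61 and 8.89 CPM. Every homozygous mouse thus lay below every WT mouse, by a log2 fold change of -0.32 (standard error 0.14, 95% confidence interval -0.61 to -0.03, unadjusted p = 0.0335). The difference did not pass adjustment over all genes (adjusted p = 0.485, edgeR), and p = 0.0286 in the exact permutation test is the smallest that 4 against 4 mice can give. Ranges were likewise apart for 2.65% of all genes tested in this comparison. Of 10 pericyte and smooth muscle markers, 4 (Abcc9, Anpep, Cspg4 and Vtn) were lower in the same comparison at an unadjusted p under 0.05 and none was called. Such a p, in either direction, was found for 9.98% of all genes tested. The median log2 fold change was -0.33 over the list against 0.01 over all genes tested. The summed CPM of the 10 markers was 207 to 250 in the homozygous mice and 254 to 295 in WT, and their part in the Nrp1 difference was not tested.

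Markers of tissues next to the cerebellum also had negative medians in the homozygous mice. Of 8 meningeal fibroblast markers, 2 were lower at an unadjusted p under 0.05 (Col1a1 and Col1a2, named after their values were seen), against 9.98% of all genes tested in either direction. None of the 8 was called, and the list had a median log2 fold change of -0.31 and summed CPM of 89.8 to 138 against 124 to 144 in WT. The 10 choroid plexus markers had a median log2 fold change of -1.19, with 0 of 10 at an unadjusted p under 0.05. With the log2 of their summed CPM as a covariate, the Nrp1 log2 fold change was -0.24 (95% confidence interval -0.52 to 0.03, unadjusted p = 0.0828, edgeR). Without the WT mouse at 8.89 CPM it was -0.25 (95% confidence interval -0.56 to 0.07).

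In the genotypes with the expanded allele no fall of Nrp1 was detected. The SCA1 mice had 5.79, 6.37, 6.68 and 9.92 CPM, where 9.92 CPM was the highest of all 24 mice. Their log2 fold change was 0.18 (95% confidence interval -0.12 to 0.47), and -0.03 without that mouse (95% confidence interval -0.29 to 0.23). That mouse also had the highest summed pericyte and smooth muscle markers of the SCA1 mice, 246 CPM, and their part was not tested. SCA1 S776A mice, at 6.4 to 7.81 CPM, gave 0.18 and S776A double mice, at 5.48 to 7.65 CPM, gave 0.04, against 5.08 to 7.84 CPM in WT.

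Hif1a, whose protein rather than RNA level responds to oxygen, had slightly higher means in all 4 genotypes than in WT. The WT mice of batch 1 had 152, 157, 163 and 166 CPM, the SCA1 mice 157, 172, 175 and 177 CPM and the S776A double mice 163, 171, 171 and 186 CPM. Of the 4 SCA1 and the 4 double mice, 3 each lay above every WT mouse. The log2 fold changes were 0.09 in SCA1 (95% confidence interval -0.06 to 0.25) and 0.11 in S776A double mice (95% confidence interval -0.05 to 0.27), and 0.03 in SCA1 S776A mice, which ranged from 158 to 166 CPM. Over the 12 mice with the expanded allele the log2 fold change was 0.08 (95% confidence interval -0.05 to 0.21, edgeR adjusted p = 0.793, exact permutation p = 0.0802).

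The WT S776A homozygous mice spread most in Hif1a, with 200, 210, 246 and 278 CPM against 196, 201, 218 and 224 CPM in WT. The log2 fold change was 0.16 (95% confidence interval 0 to 0.31, unadjusted p = 0.0533, edgeR adjusted p = 0.498). It was 0.06 without the mouse at 278 CPM (95% confidence interval -0.08 to 0.19) and at most 0.21 without any other mouse. The mouse at 278 CPM also had the highest share of fragments on mitochondrial genes of all 24 libraries, 6.73%, and the mouse at 246 CPM had the next highest, 4.82%. WT mice of this batch had 3.35% to 4.38%, and the part of RNA quality in these values was not tested.

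**Figure D2:**
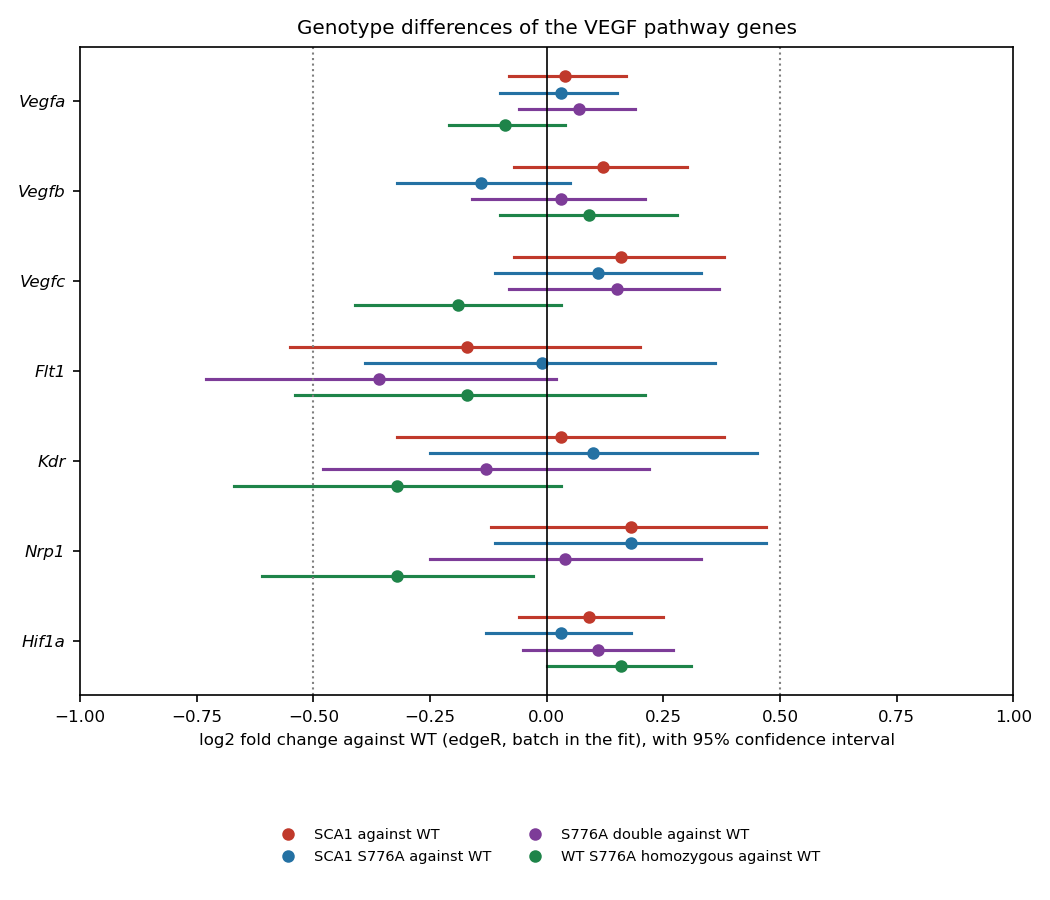
Log2 fold change of each VEGF pathway gene against the WT mice of its batch (x axis), with 95% confidence intervals, for 4 genotypes in colors. Dotted lines mark the fold change of 0.5 needed for a call, and only the interval of Nrp1 in WT S776A homozygous mice, -0.61 to -0.03, leaves out 0.

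Calls needed an adjusted p below 0.01 together with a log2 fold change above 0.5 in size. In SCA1 mice 0 of the 7 members were called, where 0.173% of all genes tested were. Likewise 0 of 7 members had an unadjusted p under 0.05, against 8.25% of all genes, and 0 of 7 had ranges apart from WT, against 8.76% of all genes. Of the 7, 6 had a positive and 1 a negative log2 fold change, with a median of 0.09 against 0 over all genes. Among only 7 genes, counts of 0 are close to these shares, so they do not set the members apart from other genes.

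The same count was 0 called in SCA1 S776A mice (0.0133% of all genes), with 0 of 7 at an unadjusted p under 0.05 (3.93%) and 0 of 7 with ranges apart (4.39%). For S776A double mice it was 0 called (0.0267%), 0 of 7 at an unadjusted p under 0.05 (6.93%) and 0 of 7 with ranges apart (7.11%). For the mean of the 3 genotypes with the expanded allele it was 0 called (0.0978%), 0 of 7 at an unadjusted p under 0.05 (7.67%) and 0 of 7 with ranges apart (1.07%). These 3 comparisons and that of SCA1 share the same 4 WT mice.

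In WT S776A homozygous mice edgeR called no gene at all (0% of 22502 genes, lowest adjusted p 0.485, and 2246 genes at an unadjusted p under 0.05). DESeq2 with the batch as a covariate called 0 genes too, but ComBat-seq followed by DESeq2 called 99, none of them a member. Nrp1 was the 1 of 7 members at an unadjusted p under 0.05, against 9.98% of all genes, and the 1 of 7 with ranges apart, against 2.65% of all genes. A share of 1 in 7 is close to the background for the first of these counts. The second rests on 1 gene, and over all 49 values of the members in the 7 comparisons only this 1 had ranges apart. In the homozygous mice 5 members had a negative log2 fold change, with a median of -0.17 against 0.01 over all genes.

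Set directly against SCA1 mice, 0 of 7 members were called in SCA1 S776A mice (0.00444% of all genes), Vegfb was the 1 at an unadjusted p under 0.05 (4.35%) and 0 had ranges apart (3.41%). In S776A double mice against SCA1 mice, 0 of 7 were called (0% of all genes by edgeR, lowest adjusted p 0.0105, against 1 gene by DESeq2 with the batch and 4 by ComBat-seq followed by DESeq2), 0 had an unadjusted p under 0.05 (3.64%) and 0 had ranges apart (2.7%). The WT mice do not enter these differences other than through the shared estimate of the spread.

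For Vegfa, Vegfc, Flt1, Kdr and Hif1a the difference between batches exceeded that of every genotype against WT. Among WT mice alone, Vegfa was at 82.2 CPM in batch 2 against 102 CPM in batch 1, a log2 difference of -0.31 with ranges apart (edgeR adjusted p = 0.000175). Vegfc was higher in batch 2 by a log2 difference of 0.64 (adjusted p = 3.57e-05), Flt1 by 0.54 (adjusted p = 0.0191), Kdr by 0.44 (adjusted p = 0.0379) and Hif1a by 0.39 (adjusted p = 0.000194), all by edgeR and with ranges apart. Nrp1, at 0.29 (adjusted p = 0.102), and Vegfb, at 0.06 (adjusted p = 0.64), overlapped between batches. By the thresholds for a call, 1 of 7 members (Vegfc) passed, against 17.6% of all genes, and 5 of 7 had ranges apart, against 46.7% of all genes. The batch groups were inferred from these libraries and differ in the share of fragments outside genes, so what else differed between them was not tested.

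The values of Vegfa depended on whether the batch was in the fit. Without it, when the WT mice of both batches are averaged, the Vegfa log2 fold change against WT was 0.19 in SCA1 mice (unadjusted p = 0.0203), 0.19 over the 3 genotypes with the expanded allele (adjusted p = 0.0474) and -0.25 in WT S776A homozygous mice (adjusted p = 0.0355, edgeR). For Flt1 the 3 genotypes gave -0.48 without the batch (adjusted p = 0.0374) and -0.18 with it (adjusted p = 0.791). None of these values passed the thresholds for a call, and none of them was a fall of Vegfa in mice with the expanded allele.

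**Figure D3:**
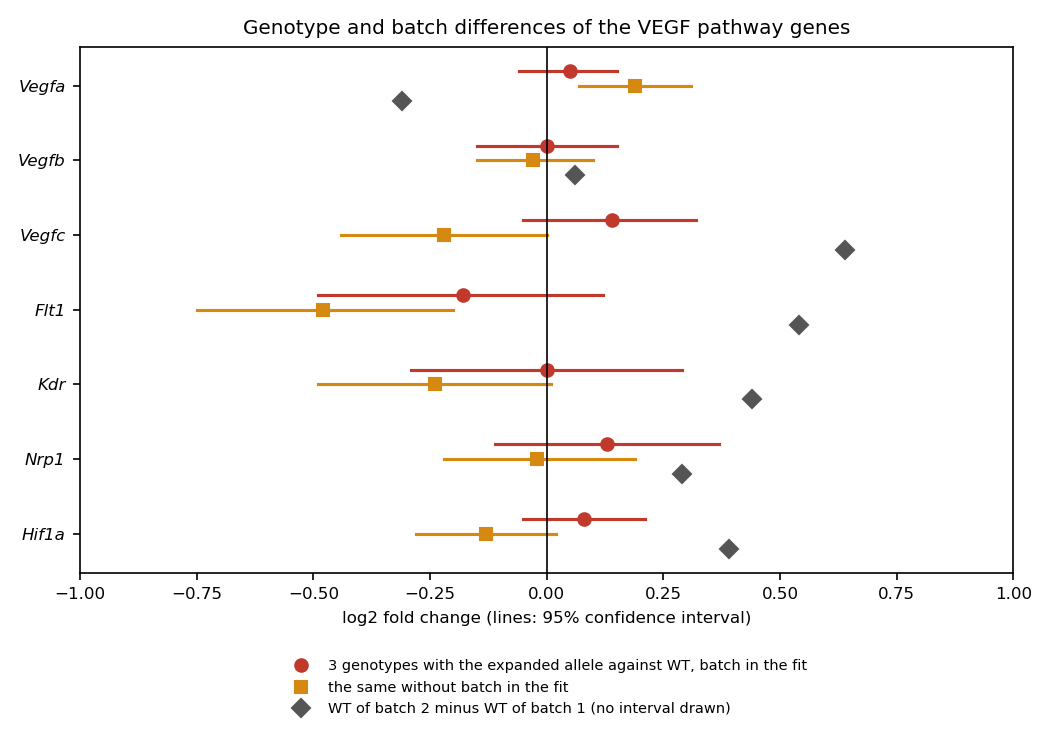
Log2 fold changes (x axis) of the 7 genes for the mean of the 3 genotypes with the expanded allele against WT, with the batch in the fit (red circles) and without it (orange squares), each with its 95% confidence interval, and for WT mice of batch 2 against those of batch 1 (grey diamonds). Vegfa is at 0.05 with the batch and 0.19 without it, and its batch difference of -0.31 exceeds both in size.

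Vegfa is also made by choroid plexus epithelium, and the amount of this tissue differed widely between the dissected cerebella. The summed CPM of 10 choroid plexus markers, which include Ttr and Folr1, was 37 to 1830 in WT mice of batch 1, 941 to 5330 in SCA1, 50.9 to 3280 in SCA1 S776A and 35.1 to 3180 in S776A double mice. In batch 2 it was 563 to 2800 in WT and 42.8 to 956 in WT S776A homozygous mice. No marker was at 0 in all mice of a group. The SCA1 mouse with 119 CPM of Vegfa, 14.2 CPM of Kdr and 9.92 CPM of Nrp1 had the highest sum of all 24 mice, 5330 CPM. With the log2 of this sum as a covariate, the log2 fold change of Vegfa in SCA1 mice was 0.02 (95% confidence interval -0.11 to 0.15), that of Kdr 0.14 (95% confidence interval -0.21 to 0.49) and that of Nrp1 0.08 (95% confidence interval -0.21 to 0.36). For Flt1 it was -0.05 with the covariate (95% confidence interval -0.41 to 0.31) against -0.17 without it. In S776A double against SCA1 mice Flt1 was at -0.35 with the covariate (95% confidence interval -0.72 to 0.02) and at -0.18 without it.

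**Figure D4:**
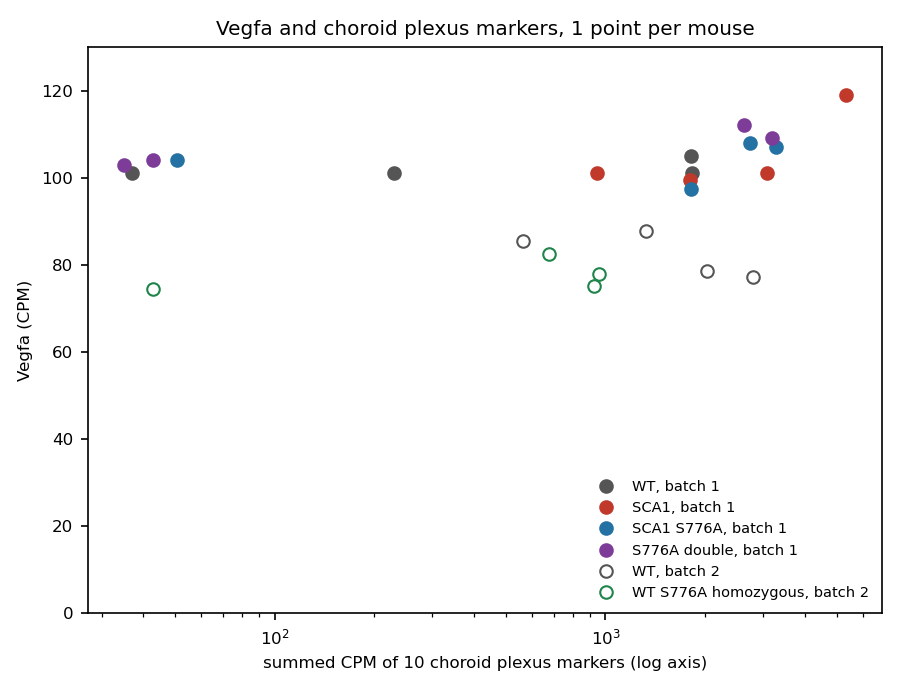
Vegfa in CPM (y axis, linear from 0) against the summed CPM of 10 choroid plexus markers (x axis, log scale) in each of the 24 mice, colored by genotype, with open points for batch 2. The SCA1 mouse at 119 CPM of Vegfa has the highest sum, 5330 CPM, and the batches stay apart in Vegfa at every sum.

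No gene of the lists of other ligands and receptors, receptor signaling and semaphorins was called in SCA1 mice. Of 11 other ligands, receptors and coreceptors, which include Pgf, Vegfd, Flt4 and the plexins, none was called, and only Plxnd1, a semaphorin receptor of endothelial cells, had an unadjusted p under 0.05 (log2 fold change -0.32, standard error 0.14, adjusted p = 0.512 with edgeR). Of 25 genes of receptor signaling, 24 were tested and 0 called, and only Pxn, which encodes the adhesion protein paxillin, had an unadjusted p under 0.05 (log2 fold change -0.18). None of 7 class 3 semaphorins was called or had an unadjusted p under 0.05. The medians of these lists were -0.11, -0.03 and 0.02, against 0 over all genes tested, of which 8.25% had an unadjusted p under 0.05.

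Among genes that control or follow hypoxia-inducible factor, 1 was called. Of 15 genes of the HIF pathway, which include Epas1, Vhl and the prolyl hydroxylases Egln1, Egln2 and Egln3, none was called, and only Siah2, a ubiquitin ligase for the prolyl hydroxylases, had an unadjusted p under 0.05 (log2 fold change 0.24). Of 25 HIF target genes 24 were tested, as Epo was filtered out. Car9, a membrane carbonic anhydrase that is widely used as a readout of hypoxia, fell in SCA1 mice to 4.47 ± 0.572 CPM (SD, n = 4) from 11.2 ± 0.655 CPM (SD, n = 4) in WT, a log2 fold change of -1.33 (standard error 0.17, edgeR adjusted p = 0.0001).

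Car9 was at 3.96 to 5.11 CPM in SCA1 mice and at 10.4 to 11.8 CPM in WT mice, so every SCA1 mouse lay below every WT mouse. It was at 6.77 ± 1.63 CPM in SCA1 S776A and 6.09 ± 1.95 CPM in S776A double mice (SD, n = 4), and edgeR called it in neither of them against WT. Over the 3 genotypes with the expanded allele it fell by 0.98 on the log2 scale (edgeR adjusted p = 0.000183) and was called. In batch 2 it stood at 9.12 ± 0.752 CPM in WT S776A homozygous mice and 9.26 ± 0.634 CPM in WT (SD, n = 4). The other HIF targets did not share this change: the list's median was 0.07 on the log2 scale in SCA1 mice, and besides Car9 only Hk2, a hexokinase, at -0.25 and Pgk1, a glycolytic kinase, at 0.12 had an unadjusted p under 0.05. Over all genes tested, 8.25% had such a p. Car9 was named by the rule for listed genes that were called and is not evidence on the list.

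**Figure D5:**
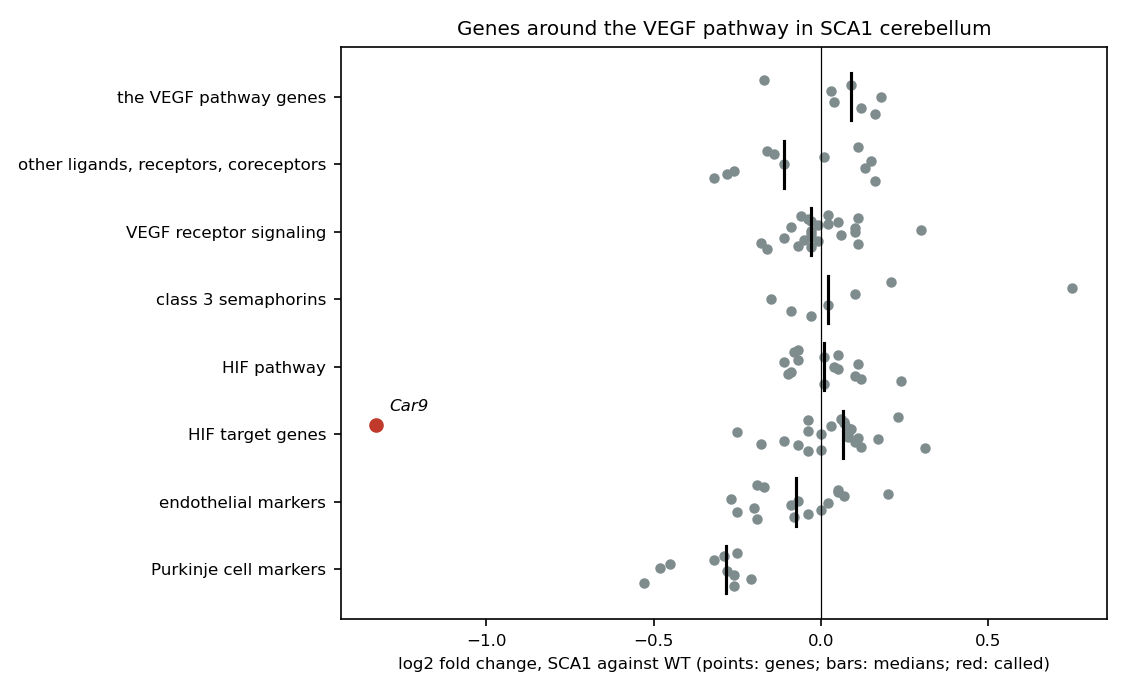
Log2 fold changes in SCA1 against WT mice (x axis) of the genes in 8 lists (rows), where each point is a gene, black bars are list medians and red marks a called gene. Car9 at -1.33 is the only called gene among them, the members' median is 0.09 and that of the Purkinje cell markers is -0.29.

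The cell types that make or bind VEGF were checked by their markers. For comparison, 8.25% of all genes tested had an unadjusted p under 0.05 in SCA1 mice, in either direction. In SCA1 mice 0 of 16 endothelial markers had an unadjusted p under 0.05, with a median log2 fold change of -0.07, and 0 of 10 pericyte and smooth muscle markers did, with a median of -0.08. Bergmann glia and astrocyte markers (0 of 10, median 0), microglia and macrophage markers (0 of 11, median 0.04) and meningeal fibroblast markers (0 of 8, median -0.02) were likewise at 0. The 10 choroid plexus markers had a median of 1.2, with 1 of 10 (Otx2, at 0.58) higher at an unadjusted p under 0.05 and none called. Of the 10 Purkinje cell markers, 8 had an unadjusted p under 0.05 and were lower, with a median of -0.29 and none called, led by Rgs8 at -0.53 (adjusted p = 0.0152, edgeR). At the same p, 2 of 10 granule cell markers (Cbln1 and Chn2) were lower (median -0.1) and 3 of 10 oligodendrocyte markers (Mbp, Mobp and Olig2) were higher (median 0.16). Anpep, Vtn, Pgk1 and the 5 genes just named were added after their values were seen. The markers of the labelled tissue were abundant in every group, with summed levels of 6460 to 9980 CPM for Purkinje cells and 6690 to 10100 CPM for granule cells.

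Across mice, the genes most like the receptors included endothelial genes. Over the 24 mice, with the batch difference removed, the genes whose log2 CPM was most like that of Flt1 were Ptprb (Pearson r = 0.88), Podxl (r = 0.87) and Ets1 (r = 0.86), among 12041 genes compared. Those most like Kdr were Cd93 (r = 0.85), Cxcl12 (r = 0.78) and Fzd6 (r = 0.76). Those most like Nrp1 were Dab2 (r = 0.86), Ctxn1 (r = 0.85) and Rai14 (r = 0.83). Ptprb, Podxl and Cd93 encode surface proteins of endothelial cells.

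For the ligands, Vegfa was most like Kank1 (r = 0.71), Adamtsl1 (r = 0.7) and Tubb4b (r = 0.69), Vegfb like H1fx (r = 0.85), Vstm2l (r = 0.82) and Il17d (r = 0.81), and Vegfc like Slc25a3 (r = 0.82), Fam181b (r = 0.81) and Prmt2 (r = 0.8). Hif1a was most like Snx10 (r = 0.97), Nap1l3 (r = 0.95) and Vma21 (r = 0.93). The mice at 278 and 246 CPM of Hif1a had the highest shares of fragments on mitochondrial genes, 6.73% and 4.82%. The part of RNA quality in these r values was not tested. Between members, the closest pairs were Vegfc with Nrp1 (r = 0.71), Vegfa with Nrp1 (r = 0.59), Kdr with Nrp1 (r = 0.59) and Flt1 with Kdr (r = 0.55), while Vegfa with Hif1a gave r = -0.32 and Vegfa with Kdr r = 0.31. These values describe the same 24 libraries, which share depth, dissection and genotype, and they are given without a test.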

How the data were processed

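Per the labels and the study's methods, the authors used Trimmomatic 0.36 for trimming and STAR 2.7.2d for alignment to GRCm38.p6, and deposited unnormalized whole-number counts of fragments per gene. Unstranded counts were taken, as forward and reverse totals had a ratio of 0.9995 to 1.0035. Of 54232 gene IDs, 54165 matched GENCODE M21, and 1 other row and 1 of the gene lists are not reported here. No library was a copy of another of its genotype and batch: the chi-square per degree of freedom between such mice was 8.67 to 219. Libraries of different genotypes or batches were not compared in this way.

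The batch was inferred by k-means (2 parts, 50 starts, 4 summary shares, mean silhouette 0.634). Counts were normalized by TMM (factors 0.944 to 1.056) and tested in R 4.3.3 with edgeR 4.0.16 (quasi-likelihood, robust, its expression filter, genotype and batch in the fit, all 24 mice, Benjamini-Hochberg over 22502 genes). The study used ComBat-seq and DESeq2, tried here as an alternative with sva 3.50.0 and DESeq2 1.42.0. CPM are counts scaled to library size after TMM, log2 CPM used a prior count of 2, and batch effects were removed for correlations with limma 3.58.1. Single members were compared within a batch by exact two-sided permutation tests of log2 CPM. RPKM used the union of exons. The code was tested on simulated data. The mice are separate animals, but p-values cover only the spread among them.

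All 7 members are named in each comparison, with the 3 genes of highest Pearson r for each (mean log2 CPM over 2), and from the other lists the genes called or the 2 of lowest p in a list. The members and lists were chosen with earlier results of these data known, and no list was tested as a set. Alternatives were no batch term, DESeq2, ComBat-seq then DESeq2, RLE size factors, no filter, fits of 1 batch, each mouse left out in turn, another length for RPKM and, chosen after seeing the data, a choroid plexus covariate. Protein and behavioral data were not analysed here.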

Additional observations from a re-analysis of the deposited data

Results flagged for a closer look

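A mouse lay far from the other 3 of its group in 3 of the 42 sets of 4 mice examined (7 genes in 6 groups). Chance alone gives about 2.1 such sets. Vegfa was at 6.89 log2 CPM in SCA1 replicate 4, where the other SCA1 mice were at 6.64 to 6.66, and at 6.72 log2 CPM in WT replicate 4, where the other WT mice of batch 1 were at 6.65 to 6.66. Flt1 was at 5.08 log2 CPM in SCA1 replicate 4, against 4.74 to 4.8 in the other SCA1 mice. SCA1 replicate 4 also had the highest summed choroid plexus markers, 5330 CPM. Its summed endothelial markers were at 260 CPM, against 200 to 221 CPM in the other SCA1 mice. For pericyte and smooth muscle markers the sum was 246 CPM, against 216 to 227 CPM. The share of fragments on mitochondrial genes was 3.97%, against 3.32% to 3.4%. The part of any of these in its Vegfa and Flt1 values was not tested.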

How the results depend on the processing

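No member was called in any of the 7 comparisons under any of the alternatives, including ComBat-seq followed by DESeq2 (lowest adjusted p 0.152, 7 of 49 values at an unadjusted p under 0.05) and DESeq2 with the batch as a covariate (0.595, 3 of 49). No paired analysis was possible because the labels give no replicate numbers, and those used here only name mice. Leaving out the batch turned the sign of 16 of 49 values. In SCA1 mice these were Vegfc at -0.2, Kdr at -0.21 and Hif1a at -0.12, in SCA1 S776A mice Vegfc at -0.25, Kdr at -0.14 and Hif1a at -0.18, and in S776A double mice Vegfb at 0, Vegfc at -0.21, Nrp1 at -0.11 and Hif1a at -0.1. In WT S776A homozygous mice they were Vegfc at 0.09 and Flt1 at 0.08, and over the 3 genotypes Vegfb at -0.03, Vegfc at -0.22, Nrp1 at -0.02 and Hif1a at -0.13. This fit averages WT mice of both batches. Without the filter, Kdr over the 3 genotypes and Vegfc in S776A double against SCA1 mice turned sign at 0, and with the choroid plexus covariate Flt1 in SCA1 S776A mice was at 0.05, Kdr over the 3 genotypes at 0.04 and Kdr in SCA1 S776A against SCA1 mice at 0. The cause was not tested. Counts over all genes moved more than those of the members: ComBat-seq followed by DESeq2 called 118 genes in SCA1 mice (39 by edgeR), 32 in SCA1 S776A (3), 50 in S776A double (6), 99 in WT S776A homozygous (0) and 84 over the 3 genotypes (22), and DESeq2 with the batch called 66, 9, 19, 0 and 32. In SCA1 mice, those of one batch alone gave 65.

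Leaving out 1 mouse at a time turned the sign of 18 results. Against WT, SCA1 mice gave -0.03 to 0.06 for Vegfa, -0.2 to 0.12 for Kdr and -0.03 to 0.28 for Nrp1. SCA1 S776A mice gave -0.21 to 0.11 for Flt1 and -0.01 to 0.22 for Kdr, and S776A double mice -0.03 to 0.09 for Vegfb and -0.05 to 0.15 for Nrp1. The 3 genotypes gave -0.04 to 0.07 for Vegfb and -0.08 to 0.04 for Kdr. Against SCA1 mice, SCA1 S776A mice gave -0.03 to 0.06 for Vegfa, -0.09 to 0.01 for Vegfc, -0.03 to 0.29 for Flt1, -0.04 to 0.3 for Kdr and -0.08 to 0.21 for Nrp1, and S776A double mice gave -0.07 to 0.08 for Vegfc, -0.28 to 0.06 for Kdr, -0.22 to 0.07 for Nrp1 and -0.02 to 0.05 for Hif1a. SCA1 replicate 4 turned 9 of 49 values, the most of any mouse. Vegfa had at least 5333 fragments in each library.

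Car9 kept its call in every alternative.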
